A study of Mus musculus with 12 samples.

Results

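Muscle fibre types in tongue tissue were followed through 6 sarcomeric myosin heavy chain genes, Myh1, Myh2, Myh3, Myh4, Myh7 and Myh8, which were chosen by name and were all found among the 32498 named genes of the data. Bulk RNA-seq had been made from the tongues of C57BL/6 mice bought at 5 weeks of age, with 6 libraries from mice gavaged with vehicle and 6 from mice gavaged with gallic acid (GA). In both groups all mice drank water with the carcinogen 4NQO (100 µg/mL) for 16 weeks. GA was given in doses of 100 mg/kg, starting in week 4, on 5 occasions per week. The labels describe the material as tumor and tumor-associated tongue tissue and give no animal identifiers, so each library was taken as 1 mouse and p-values measure the spread between libraries. No group without 4NQO was used here.

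The myosin heavy chain is the motor of the thick filament, and the isoform that a muscle fibre makes sets how fast it shortens. Adult fast fibres use the 2A form (Myh2), the 2X form (Myh1) or the 2B form (Myh4), in order of rising speed, and slow fibres use the beta form (Myh7), which is shared with the heart. The embryonic form (Myh3) and the perinatal form (Myh8) are made during development and again in regenerating fibres. The mouse tongue is a predominantly fast muscle, and a bulk library also holds epithelium, connective tissue, immune cells and, in some pieces, minor salivary glands.

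Values are FPKM, reads divided by gene length and by the reads of the library, then brought to a common scale across libraries. Genes were compared on log2(FPKM + 0.1), where changes of low genes come out too small. Library depth recovered from the values was 18039779 to 21772952 reads with vehicle and 21234508 to 25190020 reads with GA. Skeletal muscle was present in every library, with Acta1, the skeletal actin, at 420 to 4011 scaled FPKM. Of 5 heart muscle markers 3 were low, with Myh6 at most at 0.0434, Nppa at 0.219 and Ryr2 at 0.0145 scaled FPKM (61.5% of the exon bases of Nppa overlap another gene). Tnni3, the cardiac troponin I, reached 0.715, and Myl7, a light chain of the atria, was at 1.14 to 8.503. Vehicle libraries 3 and 5 and GA library 2 had over 1000 FPKM of Lipf, a lipase of tongue glands, and are called high-Lipf libraries. Y-linked reads were found in GA library 1 and in the vehicle libraries other than 5 and 6.

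All but Myh7 lie in 1 cluster on the plus strand of chromosome 11 of GRCm38, in the order Myh3, Myh2, Myh1, Myh4 and Myh8. Myh3 spans 67078300 to 67102291, Myh2 67171027 to 67197517, Myh1 67200052 to 67224575, Myh4 67238029 to 67260446 and Myh8 67277124 to 67308634. Myh7 lies apart, on the minus strand of chromosome 14 (54970684 to 54994626). The promoters of Myh1, Myh2, Myh4 and Myh8 are shown because they belong to the 3 adult fast genes and the perinatal gene, of which Myh1, Myh2 and Myh8 varied together across libraries. Each is a RefSeq window of GRCm38.p6, plus strand, with 250 bases before the RefSeq start and 50 after. For Myh1 and Myh4 that start differs from the gene start given above, and the Myh4 window lies wholly before the latter. Distances are counted from the RefSeq start. Capitals mark the 14 bases TTCTAATTATATCC, the longest run that the 4 windows share, and the 15 bases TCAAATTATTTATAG, the longest that those of Myh1, Myh4 and Myh8 share.
Myh1 (chr11:67199852-67200151): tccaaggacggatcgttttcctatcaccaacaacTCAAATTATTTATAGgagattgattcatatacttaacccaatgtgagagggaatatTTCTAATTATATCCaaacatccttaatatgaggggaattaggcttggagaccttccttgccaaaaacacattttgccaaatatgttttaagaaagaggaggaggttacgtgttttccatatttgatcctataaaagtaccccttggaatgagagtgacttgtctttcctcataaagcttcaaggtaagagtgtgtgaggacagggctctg
Myh2 (chr11:67170777-67171076): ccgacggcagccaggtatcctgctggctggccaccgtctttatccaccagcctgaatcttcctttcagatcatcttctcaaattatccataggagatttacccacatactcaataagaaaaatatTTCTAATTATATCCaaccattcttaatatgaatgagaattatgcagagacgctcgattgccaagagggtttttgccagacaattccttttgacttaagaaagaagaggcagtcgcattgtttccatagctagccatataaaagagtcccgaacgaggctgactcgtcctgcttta
Myh4 (chr11:67237562-67237861): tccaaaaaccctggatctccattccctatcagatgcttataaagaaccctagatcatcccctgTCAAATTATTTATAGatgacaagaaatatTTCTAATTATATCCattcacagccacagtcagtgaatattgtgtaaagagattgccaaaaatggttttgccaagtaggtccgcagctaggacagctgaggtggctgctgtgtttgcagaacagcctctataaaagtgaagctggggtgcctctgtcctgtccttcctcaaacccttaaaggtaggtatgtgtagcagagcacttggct
Myh8 (chr11:67276874-67277173): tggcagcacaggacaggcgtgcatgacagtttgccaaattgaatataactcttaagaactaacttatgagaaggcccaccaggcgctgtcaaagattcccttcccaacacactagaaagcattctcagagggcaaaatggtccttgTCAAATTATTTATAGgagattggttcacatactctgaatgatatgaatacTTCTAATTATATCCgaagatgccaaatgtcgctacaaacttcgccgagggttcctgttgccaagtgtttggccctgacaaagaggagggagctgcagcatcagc

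The run TTCTAATTATATCC begins 160 bases before the start in Myh1, 125 in Myh2, 158 in Myh4 and 54 in Myh8. Searched on both strands, it was present in 4 of 32851 promoter windows (0.0122%), those of these 4 genes, and this follows in part from its choice. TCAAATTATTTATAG, whose A+T-rich end resembles the sites bound by MEF2 factors, begins 216, 187 and 104 bases before the start in Myh1, Myh4 and Myh8 and was found in 3 windows (0.00913%), those of these 3 genes. TATAAAAG, a TATA box, was found 32, 29 and 31 bases before the start in Myh1, Myh3 and Myh4 and 10 bases after it in Myh2, and in 1.70% of all windows. CANNTG, the E-box read by myogenic factors such as MyoD, was found in 72.3% of all windows, among them those of Myh3, Myh4, Myh7 and Myh8. The motifs were chosen after the sequences were seen, and a match describes letters only.

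The adult fast genes Myh4 and Myh1 made up nearly all of the myosin heavy chain RNA. Together they accounted for 98.6% to 99.96% of the Myh sum, the summed FPKM of the 6 genes, in each of the 12 libraries. By mean level the order was Myh4, Myh1, Myh2, Myh8, Myh3 and Myh7. Neighbours in this order overlapped in range, except for Myh1 and Myh2, and the lowest Myh1 value (64.3 scaled FPKM) was above the highest Myh2 value (13.8). By FPKM within a library, Myh4 was above Myh1 in 9 of 12, Myh2 above Myh8 in 12 of 12, Myh8 above Myh3 in 9 of 12 and Myh3 above Myh7 in 11 of 12. The plot of levels by library shows these steps. The place of Myh8 depends on gene length, since it has 11772 exon bases but a longest coding transcript of 6149 bases. For Myh2 these lengths are 7137 and 6083. In recovered reads Myh8 exceeded Myh2 in vehicle library 2 (64 against 61), GA library 3 (66 against 57) and GA library 5 (69 against 63).

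**Figure D1:**
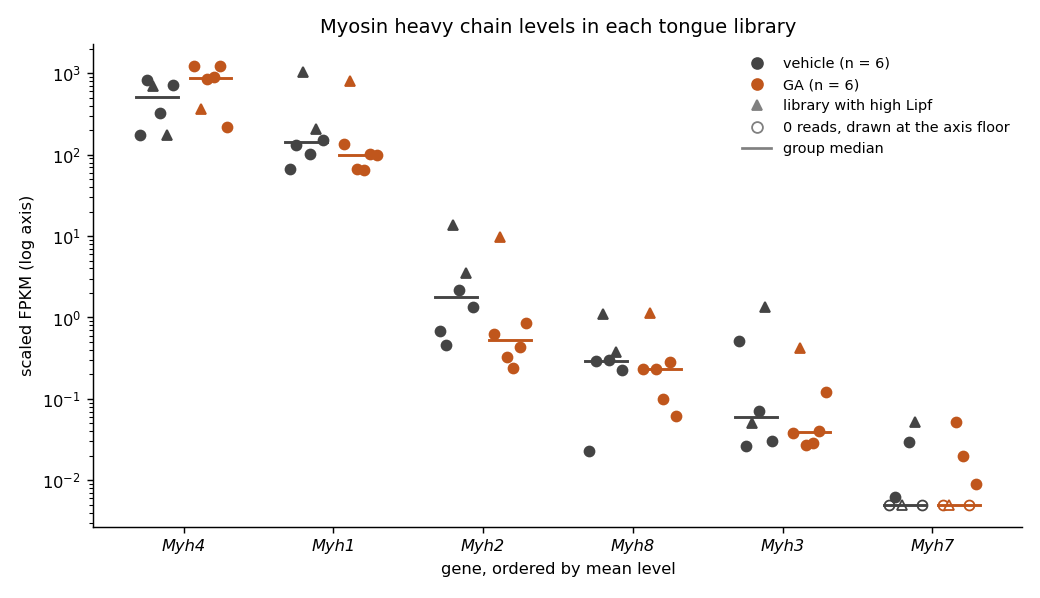
Scaled FPKM (log axis) of the 6 myosin heavy chain genes, 1 point per library, with 6 vehicle and 6 GA libraries, triangles for the 3 high-Lipf libraries and bars for group medians. Myh4 and Myh1 lie above 60 FPKM in every library, Myh7 has 0 reads in 6 of 12 libraries, and vehicle and GA points overlap for every gene.

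Whether GA changed these genes was asked by comparing the groups, and 0 of the 5 that passed the filter of 0.1 FPKM met both limits in limma, an adjusted p below 0.1 and a log2 fold change of 0.58 or more in either direction. Over all 16847 genes tested, 0 genes met them (0%), each of the 5 had an adjusted p above 0.999, and 364 genes (2.16%) had an unadjusted p below 0.05. At an unadjusted p below 0.1 with the same fold change limit, 0 of the 5 met the limits on all 12 libraries, against 1.95% of all genes. The groups overlapped for each of the 6 genes, where 0.0653% of all genes tested did not overlap. Myh4 had the higher mean with GA and the other 5 the lower mean. With a sex term (presence of Y-linked reads) the log2 fold changes were 1.04 for Myh4, -0.44 for Myh1, -1.33 for Myh2, -0.19 for Myh8 and -0.98 for Myh3. When libraries carrying Y-linked reads were left out (leaving 2 vehicle and 5 GA), they were 0.76, -0.48, -1.30, -0.17 and -1.18, and only 1 GA library had Y-linked reads.

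Myh4, the motor of the fastest 2B fibres, had 173, 513 and 813 scaled FPKM as the lowest, median and highest vehicle values. With GA these were 217, 874 and 1228. Vehicle libraries 1 and 5 and GA library 6 were the lowest, and 4 of 6 GA libraries were above the vehicle median. The log2 fold change was 0.75 (standard error, SE, 0.54, 95% interval -0.42 to 1.92, exact two-sided permutation test, p = 0.232, n = 6 per group). In bulk tissue, fewer muscle cells and less RNA per muscle cell cannot be told apart. The 12 general muscle genes, which include no myosin heavy chain, were also higher on average with GA in 12 of 12 cases (median log2 fold change 0.50, 0 called, against a median of 0.0042 over all genes). With the mean log2 level of that list as a covariate, a muscle term, the log2 fold change of Myh4 was 0.31 (95% interval -0.53 to 1.16).

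Myh1, the 2X motor, had 66.9, 142 and 1024 scaled FPKM as the lowest, median and highest vehicle values, and 64.3, 99.4 and 794 with GA. The high-Lipf libraries held the 3 highest values, 1024 in vehicle library 3, 794 in GA library 2 and 206 in vehicle library 5, and the other 9 lay between 64.3 and 153. The log2 fold change was -0.45 (SE 0.70, 95% interval -1.97 to 1.07, exact permutation p = 0.519, n = 6 per group), with 5 of 6 GA libraries under the median of the vehicle group. Without vehicle library 3 it was 0.06, the opposite sign, and with the muscle term it was -0.95. Of the exon bases of Myh1, 8.11% overlap the antisense gene Myhas, and whether strand was used in counting is not stated.

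Myh2, the motor of oxidative 2A fibres, was lower than Myh1 in each library by at least 47.0-fold. Its lowest, median and highest values were 0.462, 1.76 and 13.8 scaled FPKM with vehicle and 0.242, 0.529 and 9.67 with GA. Again the 3 high-Lipf libraries were the highest, at 3.57 to 13.8, against 0.242 to 2.17 in the others. The log2 fold change was -1.18 (SE 0.89, 95% interval -3.12 to 0.75, exact permutation p = 0.258, n = 6 per group), with 5 of 6 GA libraries under the vehicle median. It was -1.87 without GA library 2 (limma unadjusted p = 0.0220) and -0.63 without vehicle library 3 (limma unadjusted p = 0.453). These 2 libraries held the highest Myh2 values of their groups. Without the high-Lipf libraries it was -0.97 (95% interval -1.99 to 0.04, limma unadjusted p = 0.0588 and adjusted p = 0.980). With the muscle term it was -1.58 (limma unadjusted p = 0.101). Myh2 and Myh1 share 7.59% of their 100-base and 19.7% of their 50-base windows. Only uniquely mapped reads were counted, and how many reads of either gene this left out was not measured.

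**Figure D2:**
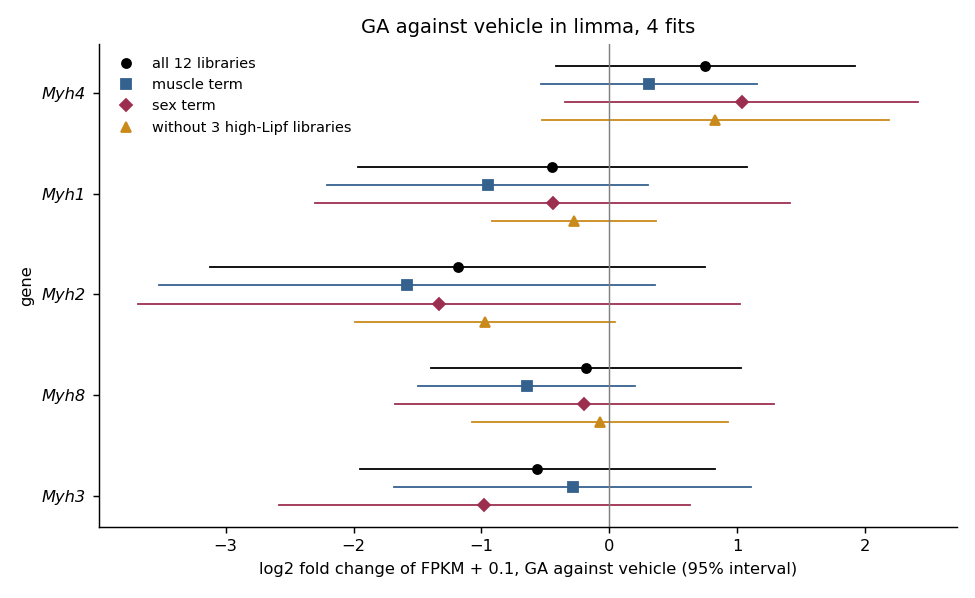
Log2 fold change of log2(FPKM + 0.1), GA against vehicle, in limma with 95% intervals for the 5 genes tested, fitted on all 12 libraries, with a muscle term, with a sex term (presence of Y-linked reads) and without the 3 high-Lipf libraries. Every interval includes 0, from Myh4 at 0.75 to Myh2 at -1.18 on all libraries, and Myh3 has no value without the high-Lipf libraries because its mean falls under the filter.

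Myh7, the slow motor, was close to the limit of detection. It had 0 reads in 6 of 12 libraries and at most 10 reads with vehicle and 11 with GA, the highest value being 0.0526 scaled FPKM. In the libraries at 0, a count of 0 allows up to 3 reads, or 0.0146 to 0.0171 FPKM before scaling, which is up to 0.00769% of the Myh sum in vehicle library 1 and up to 0.00101% in vehicle library 3. These limits cover counting error only. The mean difference on the log2 scale was -0.01 (exact permutation p = 1, n = 6 per group), and a difference between groups was not detectable at this depth. Of the exon bases of Myh7, 13.3% overlap antisense genes, and 11.2% of its 100-base windows are shared with Myh6. The other sarcomeric genes Myh6, Myh7b, Myh13 and Myh15 together came to 0.00778% to 0.0770% of the Myh sum.

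The balance between the 2B and 2X forms varied widely between libraries of both groups. As a share of the Myh sum, Myh4 held 40.4%, 73.8% and 86.1% as the lowest, median and highest vehicle values and 31.2%, 91.2% and 93.3% with GA. The mean was 66.9% ± 19.4 in the vehicle group and 78.0% ± 24.8 in the GA group (SD, n = 6), a difference of 11.2 percentage points (exact permutation p = 0.379). It was 20.5 without GA library 2 (exact permutation p = 0.0628), 5.86 without vehicle library 3 (exact permutation p = 0.621) and 6.78 without vehicle library 5 (exact permutation p = 0.574). The share of Myh1 was 32.5% ± 19.0 with vehicle and 21.7% ± 24.5 with GA (exact permutation p = 0.392, n = 6). The difference was -20.0 percentage points without GA library 2 (exact permutation p = 0.0649). It was -5.56 without vehicle library 3 (exact permutation p = 0.645) and -6.59 without vehicle library 5 (exact permutation p = 0.576). Because the shares of Myh4 and Myh1 add up to almost 100%, these are nearly 1 measurement.

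Myh1 outweighed Myh4 in the 3 high-Lipf libraries and in none of the other 9. Its share was 53.6% in vehicle library 5, 58.7% in vehicle library 3 and 67.8% in GA library 2, and 6.65% to 31.1% elsewhere. The log2 ratio of Myh4 to Myh1 was -1.12 to -0.25 in these 3 and 1.14 to 3.81 in the other 9. Myh1, Myh2 and Myh8 were each higher in all 3 high-Lipf libraries than in any other, as were 3.44% of all genes tested. The part of gland tissue, or of the position from which the piece was taken, in this difference was not tested. Without these 3 libraries the log2 ratio was 1.98 ± 0.56 in 4 vehicle libraries and 3.08 ± 1.11 in 5 GA libraries (SD), a description made after the values were seen.

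**Figure D3:**
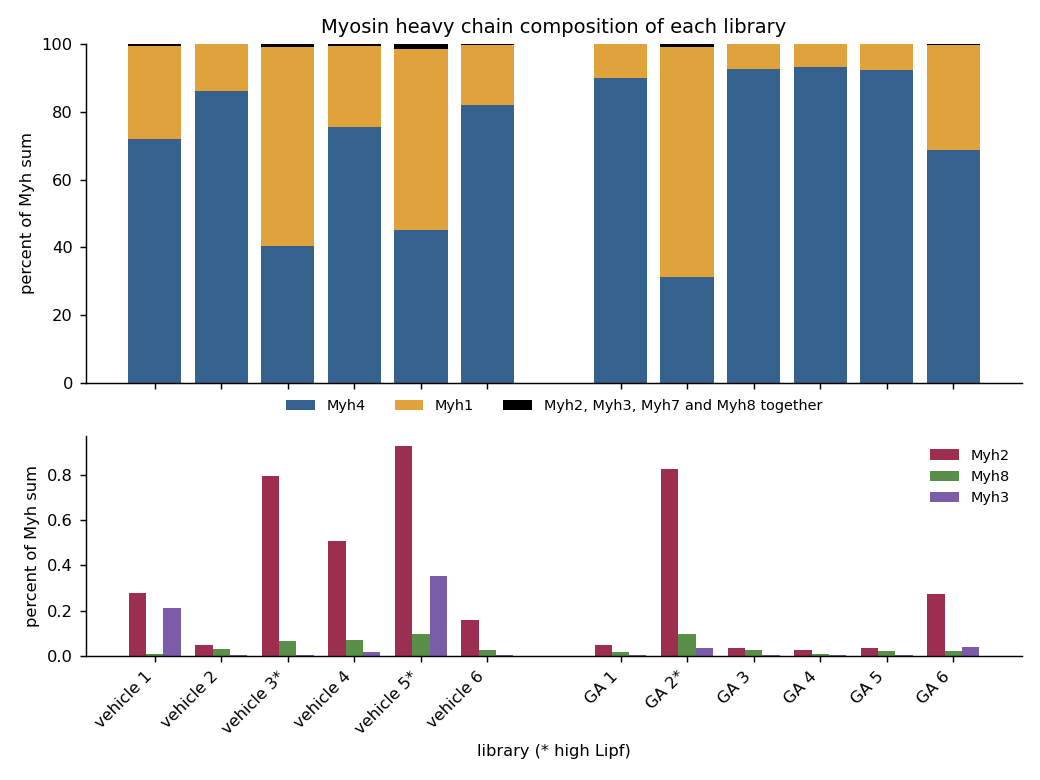
Percent of the summed FPKM of the 6 myosin heavy chain genes in each library, stacked for Myh4, Myh1 and the rest (top), and for Myh2, Myh8 and Myh3 alone on a finer axis (bottom). The 3 high-Lipf libraries (asterisks) have more Myh1 than Myh4 and a Myh2 share of 0.793% to 0.927%, against at most 0.508% in the other 9.

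Among the 9 other libraries, the Myh1 share was highest where muscle genes were lowest, a division made after the values were seen. Vehicle library 1, GA library 6 and vehicle library 4 had a mean log2 level of general muscle genes of 4.80 to 5.82 and Myh1 shares of 27.4%, 31.1% and 23.9%. The 6 libraries with levels of 6.68 to 7.40 had Myh1 shares of 17.7% and 13.8% in vehicle libraries 6 and 2 and 6.65% to 9.84% in GA libraries 1, 3, 4 and 5. Myh2 followed the same division, with shares of 0.274% to 0.508% in the first 3 and 0.0251% to 0.156% in the other 6. The high-Lipf libraries, left out here, had levels of 5.95 to 7.91 with Myh1 shares of 53.6% to 67.8%. The pattern therefore did not hold over all libraries. The share of Myh2 over all libraries was 0.452% ± 0.354 with vehicle and 0.207% ± 0.318 with GA (n = 6, SD, exact permutation p = 0.221). Without GA library 2, which held the highest Myh2 share with GA, the difference was -0.369 percentage points (exact permutation p = 0.0498). It was -0.177 without vehicle library 3 (exact permutation p = 0.383) and -0.150 without vehicle library 5 (exact permutation p = 0.418).

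The developmental forms were rare. Myh3 and Myh8 together came to 0.0132% to 0.451% of the Myh sum. In this sum Myh8 is divided by its 11772 exon bases, which makes its part smaller than with its transcript of 6149 bases. Myh3, the embryonic motor, had 0.0268, 0.0605 and 1.36 scaled FPKM as the lowest, median and highest vehicle values and 0.0272, 0.0392 and 0.428 with GA, on 3 to 184 reads per library. It stood above 0.1 FPKM in vehicle libraries 5 (1.36) and 1 (0.516) and in GA libraries 2 (0.428) and 6 (0.120), and at most at 0.0709 in the other 8. The log2 fold change was -0.56 (SE 0.64, 95% interval -1.95 to 0.82, exact permutation p = 0.446, n = 6 per group), and it was -0.07 without vehicle library 5 and -0.29 with the muscle term. As a share of the Myh sum Myh3 was 0.0986% ± 0.150 with vehicle and 0.0144% ± 0.0178 with GA (n = 6, SD, exact permutation p = 0.331), and vehicle libraries 1 and 5 held most of the vehicle value.

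Myh8, the perinatal motor, had 0.0229, 0.296 and 1.10 scaled FPKM as the lowest, median and highest vehicle values and 0.0619, 0.231 and 1.13 with GA, on 5 to 310 reads. Its 3 highest values were those of the high-Lipf libraries, as for Myh1 and Myh2. The log2 fold change was -0.18 (SE 0.56, 95% interval -1.39 to 1.03, exact permutation p = 0.786, n = 6 per group), and it was 0.14 without vehicle library 3 and 0.04 without GA library 6. With the muscle term it was -0.65 (limma unadjusted p = 0.122), the lowest value of any alternative. Its share of the Myh sum was 0.0494% ± 0.0327 with vehicle and 0.0318% ± 0.0323 with GA (n = 6, SD, exact permutation p = 0.379).

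Regeneration also involves satellite cells and newly fused fibres, and 14 genes of these steps were set beside the developmental myosins. With GA 10 of the 14 were higher on average and 4 lower, with 0 called. Their median log2 fold change was 0.27, against 0.50 for general muscle genes. Pax7, the marker of satellite cells, was at 0.0733 to 0.336 scaled FPKM with vehicle and 0.0959 to 0.302 with GA. Myog, the factor of differentiating myoblasts, was at 0.401 to 8.90 with vehicle and 1.74 to 17.0 with GA. The fetal acetylcholine receptor subunit Chrng, made in immature and denervated fibres, was highest at 0.690 in vehicle library 5, the library with most Myh3, and at 0.239 in GA library 2, and it was listed at 0 in vehicle library 1 and GA library 6, which had the second and the fourth highest Myh3 values. Mymk, the fusion protein of myoblasts, reached 2.13 in vehicle library 5 but was listed at 0 in vehicle library 1 and GA library 6.

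The remaining genes with the smallest p in this list were Actc1, Chrna1, Myf6 and Tnnt2. The fetal actin Actc1 had a log2 fold change of 1.10 (SE 1.00) with 2.09 to 117 scaled FPKM with vehicle and 4.18 to 103 with GA. The receptor subunit Chrna1 had a log2 fold change of 0.79 (SE 0.67), Myf6, the factor of mature fibres, 0.69 (0.51) and Tnnt2, the cardiac and fetal troponin T, -0.32 (0.31). Of 8 genes of denervation and atrophy, 6 were higher and 2 lower on average, with 0 called (median log2 fold change 0.28, against 0.50 for general muscle genes). Among them Musk, a kinase of the nerve and muscle junction, had a log2 fold change of 0.69, Chrnb1 0.50, Trim63, a ubiquitin ligase of muscle atrophy, 0.50 and Chrnd 0.35.

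**Figure D4:**
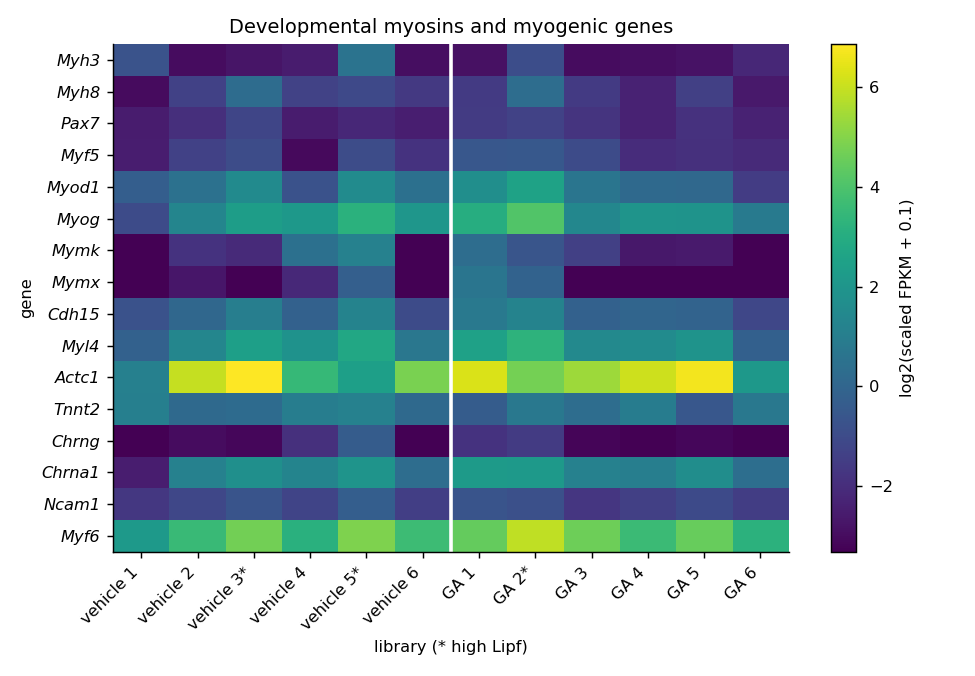
Log2(scaled FPKM + 0.1) of the developmental myosins Myh3 and Myh8 and of the 14 myogenic and regeneration genes in the 12 libraries, with vehicle left and GA right of the white line and asterisks on the high-Lipf libraries. Myh3 is brightest in vehicle libraries 5 (1.36 FPKM) and 1 (0.516 FPKM), and Myog in GA library 2 (17.0 FPKM).

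Partner proteins of fast fibres, which share the sarcomere with Myh4, Myh1 and Myh2, were divided as well. Of 10 tested, 8 were higher and 2 lower on average with GA (median log2 fold change 0.53, against 0.50 for general muscle genes, 0 called). The light chains Myl1 and Mylpf had log2 fold changes of 0.70 (SE 0.50) and 0.57 (0.47). Atp2a1, the calcium pump of fast fibres, had 0.63 (0.51) and the myosin kinase Mylk2 0.64 (0.54), although 21.9% of the exon bases of Atp2a1 overlap Rabep2. Myl1 was at 103 to 622 scaled FPKM with vehicle and 120 to 658 with GA.

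The 2 that were lower on average, Actn3 and Mybpc2, were also among those that were highest in the 3 high-Lipf libraries. Actn3, the fast actinin of the Z disc, was at 21.0 to 35.0 scaled FPKM in these 3 and 0.933 to 9.81 in the other 9, with a log2 fold change of -0.93 (SE 0.86). Mybpc2, the fast myosin-binding protein C, was likewise higher in each of these 3 than in the other 9 and reached 46.5 in GA library 2, with a log2 fold change of -0.98 (SE 1.11). The muscle lists and the list of other myosin heavy chains, which includes smooth muscle and nonmuscle forms, held 70 tested genes besides the 6 members. Of these 70, 5 were higher in all 3 high-Lipf libraries than in the other 9. Over all genes tested, this was so for 580 of 16847 (3.44%). The 5 genes were Actn3, Mybpc2, Pvalb, Cdh15 and Myf6, named after their values were seen.

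Slow fibre partners, which accompany Myh7, were divided. Of 9 tested, 4 were higher and 5 lower on average with GA (median log2 fold change -0.12, 0 called). Atp2a2, the slow and cardiac calcium pump that most cells also express, had a log2 fold change of -0.27 (SE 0.17) and the tropomyosin Tpm3 -0.12 (0.17). Mybpc1, the slow myosin-binding protein C, had 0.54 (0.42) and Lmod2, an actin filament regulator, 0.57 (0.45). Mybpc1 was at 37.7 to 220 scaled FPKM, while the slow light chains Myl2 and Myl3, which usually accompany Myh7, were at most at 0.159 and 0.124. The slow troponins lay between, with Tnnt1 at 0.492 to 10.5 (highest in GA library 2). Tnni1 was at 0.138 to 1.83 and Tnnc1 at 0 to 5.07, both highest in vehicle library 5.

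Of 12 regulators of fibre type, 10 were higher and 2 lower on average with GA (median log2 fold change 0.36, against 0.50 for general muscle genes, 0 called). The part of muscle content in the values of this and the other muscle lists was not tested. Tbx15, a factor of glycolytic fibres, was at 5.86 to 43.2 scaled FPKM with vehicle and 8.43 to 55.3 with GA (log2 fold change 0.75, SE 0.53). Six4 and Eya1, which act together on fast fibre genes, had log2 fold changes of 0.49 (0.41) and 0.49 (0.44), and Mef2c, a factor of muscle enhancers, 0.45 (0.40). Of the general muscle genes, Acta1 had 0.34 (0.50) and Ckm, the muscle creatine kinase, 0.58 (0.55). The other 4 with the smallest p, Tcap, Mb, Actn2 and Myoz1, had 0.70, 0.61, 0.60 and 0.57. Other genes overlap 31.9% of the exon bases of Mb and 15.5% of those of Ckm. Of 5 other myosin heavy chains tested, 4 were higher and 1 lower (0 called), with Myh7b at 0.41, smooth muscle Myh11 at 0.32 and nonmuscle Myh14 at 0.18 and Myh9 at -0.14.

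**Figure D5:**
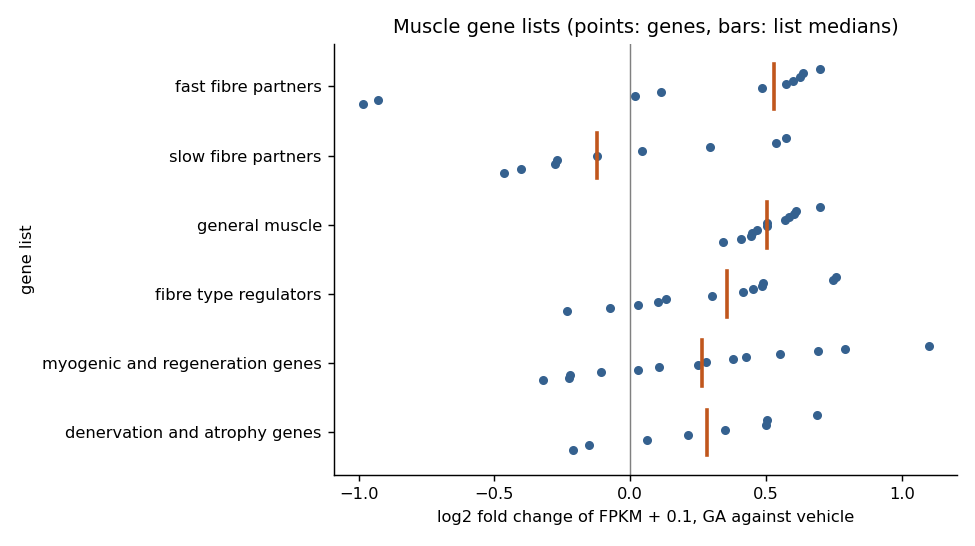
Log2 fold changes of log2(FPKM + 0.1), GA against vehicle, for the tested genes of 6 muscle gene lists, with 1 point per gene and a bar at the median of each list. General muscle genes lie between 0.34 and 0.70 and fast fibre partners run from Mybpc2 (-0.98) and Actn3 (-0.93) to Myl1 (0.70), with a median of 0.53.

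Marker genes of other cell types were compared as well, and 0 were called in any list. The 5 tongue gland genes found had a median log2 fold change of -1.47 with 5 of 5 lower on average, and their summed level was 8704 to 26292 scaled FPKM in the high-Lipf libraries while the group median was higher with GA (0.833) than with vehicle (0.571). The 5 neutrophil genes were lower in 5 of 5 cases (median -0.76), with a summed level of 1097 to 2608 with vehicle and 220 to 1811 with GA. This sum was nearly all S100a8 and S100a9, while Csf3r, Cxcr2 and Mmp9 reached at most 16.0, 7.04 and 14.6 scaled FPKM. S100a8 was at 616 in GA library 4, 459 in vehicle library 1 and 655 in vehicle library 5, with Csf3r at 0.0841, 0.0300 and 16.0. Cxcr2 was above its vehicle median in 4 of 6 GA libraries, and Csf3r and Mmp9 each in 2 of 6. The 6 oral epithelium genes summed to 14498 to 33981 with vehicle and 11272 to 24635 with GA (5 of 6 lower, median -0.14). Fibroblast genes were lower in 5 of 5 cases (median -0.19), smooth muscle genes in 3 of 5 (-0.01), heart genes in 1 of 2 (0.08) and fat cell genes in 3 of 3 (-0.66). The part of these cells in the myosin values was not tested.

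The genes most like each myosin across the 12 libraries were ranked by Pearson's r of log2(FPKM + 0.1) among 12155 genes that averaged 1 FPKM or more, as a description without a test, since the points share libraries that differ in gland and muscle content. For Myh4 they were Katnal2 (0.98), Klhl23 (0.97) and Zfp385c (0.97). For Myh1 they were Cbx6 (0.94), Car3 (0.93) and Car6 (0.92), of which Car6 is a carbonic anhydrase secreted by salivary glands. For Myh2 they were Soat1 (0.93), Chia1 (0.92) and Car6 (0.92), and for Myh8 Syt11 (0.95), Nr1h3 (0.94) and Cbx6 (0.94). Myh3 had lower values, with Slc35f5 (0.91), Litaf (0.88) and Eif2ak3 (0.88), as had Myh7, with AA467197 (0.84), Gmip (0.81) and Nppc (0.78) on at most 11 reads. Among the members, r was 0.92 for Myh1 with Myh2, 0.89 for Myh1 with Myh8, -0.04 for Myh1 with Myh4 and -0.81 for Myh3 with Myh4 (n = 12 libraries). Myh3 had 3 to 184 reads per library and was under 0.1 scaled FPKM outside vehicle libraries 1 and 5 and GA libraries 2 and 6.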

How the data were processed

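Bulk RNA-seq libraries of mouse tongue (6 vehicle, 6 GA) were grouped by their deposited labels. The authors used HISAT2 (mm10) and featureCounts on uniquely mapped reads and deposited FPKM, 1 value per gene and library, on 55463 rows. Rows without a gene name, 22965 (41.4%), were not used. Read length and strand are not given in the sources used here.

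Rows were matched by name to GENCODE M21 (GRCm38), and 29222 named rows had an exon length. With 17 to 24 bases taken off each length, 96.8% to 98.3% of values worth 1 to 8 reads came out whole within 0.02, which gave the depths. Scaling used a trimmed mean of log ratios (30% of M, 5% of A on each side, factors 0.914 to 1.08), and genes that averaged 0.1 FPKM or more were fitted as log2(FPKM + 0.1) with limma 3.58.1 (trend, Benjamini-Hochberg over 16847 genes) in R 4.3.3. The authors used edgeR on counts. Because FPKM were deposited, limma was the main test here, with limma-voom on recovered reads (16108 genes) as an alternative. Shares and single genes were compared by exact two-sided permutation over 924 assignments (smallest p 0.00216) in Python 3.11.15.

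The members, gene lists and high-Lipf division were chosen with earlier results of these data known. The text names, per list, up to 4 genes with the smallest p, plus Acta1, Ckm, Pax7, Myog and Chrng, and 3 like genes per member. Named outside this rule, after their values were seen, were Mymk, Actn3, Mybpc2, Pvalb, Cdh15, Myl2, Myl3, Tnnc2, Tnni2, linc-Myh, Lipf and the heart markers. The same holds for Tnnt1, Tnni1, Tnnc1 and the neutrophil genes S100a8, S100a9, Csf3r, Cxcr2 and Mmp9. Within groups, Spearman correlations between libraries were 0.888 to 0.971, and no 2 libraries were copies. Alternatives were other pseudocounts, filters, scalings, covariates, a replicate block, limma-voom on recovered reads and leaving out each library.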

Additional observations from a re-analysis of the deposited data

Results flagged for a closer look

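Libraries are listed here when the ratio of their distance from the next library to the whole range of their group of 6 exceeded Dixon's 95% critical value. This occurred in 14 of 90 groups of values (15.6%), where chance gives about 1 in 20, and these groups of values come from the same libraries. GA library 2, a high-Lipf library, was the highest of its group for the level of Myh1 (ratio 0.707), the level of Myh2 (0.690), the Myh2 share (0.689) and the Myh8 share of the Myh sum (0.827).

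GA library 6 was the lowest of its group in Atp2a1 (ratio 0.629), Mb (0.713), Mef2c (0.652), Myh11 (0.806), Myl1 (0.710), Mylpf (0.740), Myoz1 (0.643), Tbx15 (0.649) and Tcap (0.691). Its Myh4 level of 217 scaled FPKM was also the lowest with GA, the next being 365 in GA library 2, but it was not flagged by this rule. In vehicle library 1, Chrna1 was the lowest of its group (ratio 0.635). Myh8, which was not flagged, was at 0.0229 scaled FPKM there, where the next vehicle value was 0.225.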

How the results depend on the processing

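Under 25 alternatives, Myh2 (25 values), Myh4 (25) and Myh3 (23, since its mean fell under some filters) kept their direction, and none of the 5 tested genes met the adjusted limits in any fit. At the unadjusted limits Myh2 passed without GA library 2 (-1.87, limma unadjusted p = 0.0220, adjusted p above 0.999) and without the high-Lipf libraries (-0.97, limma unadjusted p = 0.0588, adjusted p = 0.980), and Myh4 passed without GA library 6 (1.07, limma unadjusted p = 0.0520, adjusted p = 0.817). With 1 library left out, the log2 fold change ranged from -0.97 to 0.06 for Myh1 (0.063 without vehicle library 3), -1.87 to -0.63 for Myh2, -0.87 to -0.07 for Myh3 (-0.07 without vehicle library 5), 0.51 to 1.07 for Myh4, -0.10 to 0.07 for Myh7 and -0.55 to 0.14 for Myh8 (0.14 without vehicle library 3 and 0.04 without GA library 6). The difference in share then ranged from -20.0 to -5.56 percentage points for Myh1, 5.86 to 20.5 for Myh4, -0.369 to -0.150 for Myh2, -0.103 to -0.0331 for Myh3, -0.0307 to -0.00815 for Myh8 and -0.00255 to 0.000245 for Myh7 (the last without vehicle library 5). Without the 3 high-Lipf libraries the Myh7 share difference was 0.000217. The cause of these reversals was not tested. Leaving out 1 library, 0 to 1 genes of all were called (1 without vehicle library 4), and 311 to 869 had an unadjusted p below 0.1 with the fold change limit, including 808 without vehicle library 3, 551 without GA library 2 and 869 without GA library 6. At these unadjusted limits 328 genes were called against 0 with adjustment, and the count became 75 at pseudocount 1, 104 when genes averaging under 1 FPKM were left out, 640 with the sex term, 562 without the high-Lipf libraries and 684 when the 5 libraries with Y-linked reads were left out. Samples with the same replicate number had correlations of deviations between -0.37 and 0.08 and none correlated best with its own number, so they share only a number. With the replicate block, 0 genes were called (303 at the unadjusted limits), Myh4 stayed at 0.75 (SE 0.67) and the Myh4 share at 11.2 percentage points (exact sign flips over pairs, p = 0.5).

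Myh7 and Myh3 rest on few reads, and Myh7 limits what can be said of slow fibres. Shared windows between myosins and the unstated strand of counting bear on Myh1, Myh2 and Myh7.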

Other observations

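The long noncoding RNA linc-Myh (2310065F04Rik), which lies on the minus strand between Myh3 and Myh2 (chromosome 11 of GRCm38, 67112461 to 67120080), was named after its values were seen. It was at 1.05, 4.46 and 11.1 scaled FPKM as the lowest, median and highest vehicle values and at 1.97, 7.23 and 12.7 with GA (log2 fold change 0.80, SE 0.65, limma adjusted p above 0.999). Across the 12 libraries its Pearson's r was 0.96 with Myh4 and 0.15 with Myh1, as a description.

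Tnnc2, the fast troponin C, was listed at 0 to 0.323 scaled FPKM while its partner Tnni2 was at 138 to 1176, and 74.0% of the exon bases of Tnnc2 overlap Ube2c on the annotation.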
